A study of Mus musculus with 30 samples.

Results

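MHC class I presentation genes were followed in mouse liver under 6 treatments that combine the acyl-CoA-binding protein ACBP with 2 inducers of anorexia. The set holds 10 of the 48440 genes in the count table, taken by gene symbol: the classical heavy chain genes H2-K1 and H2-D1, the light chain gene B2m, the peptide transporter genes Tap1 and Tap2, the tapasin gene Tapbp, the immunoproteasome subunit genes Psmb8, Psmb9 and Psmb10, and the transactivator gene Nlrc5. The 10 genes were selected by their known role and not by a measured value, although earlier results of these data were known when they were selected. Livers came from wild-type C57BL/6 J females that received an osmotic pump at an age of 8 weeks, and each group below had 5 libraries. The CDDP+ACBP group had a pump with ACBP at 2.5 mg/mL and was given CDDP, a name of the platinum drug cisplatin, 72 hours after implantation. The CDDP group had a PBS pump and received the same drug at 72 hours. The CRS+ACBP group had the ACBP pump and was exposed to CRS, which the labels do not spell out, 48 hours after implantation, and the CRS group had a PBS pump with the same exposure. The ACBP group had the ACBP pump alone, and the PBS group had the PBS pump alone. Every group thus carried a pump, and no group with food restricted alone is described in the labels, which also do not say whether each library is a separate animal. The p-values therefore measure the spread between libraries.

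MHC class I molecules display peptides from the inside of a cell to CD8 T cells and are recognised by inhibitory receptors of NK cells. Proteasomes cut cytosolic proteins into peptides, and under interferon the catalytic subunits encoded by Psmb5, Psmb6 and Psmb7 are replaced by those of Psmb8, Psmb9 and Psmb10, which gives the immunoproteasome. TAP1 and TAP2 pump the peptides into the endoplasmic reticulum, where tapasin helps to load them onto a heavy chain paired with beta-2-microglobulin. Most liver cells, hepatocytes included, make class I at a modest level, while lymphocytes and other immune cells make it at a high level.

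Libraries held 13957380 to 18479134 reads on genes. Summed levels of 10 hepatocyte markers were 45002 to 145380 CPM (read counts scaled to a common library total, here adjusted by trimmed mean of M values factors) over the 30 libraries. The mean log2 CPM of skeletal muscle markers was above 6 in 6 libraries and that of brain markers above 2 in ACBP replicate 4, limits set once the scores were seen, and each main result was also computed without these 7. A further 7 libraries, CDDP replicates 1 and 5 among them, had muscle scores of 3.30 to 4.97 and were kept. CDDP replicate 5 had a scaling factor of 0.701 against 0.920 to 1.19 in the other libraries, and fold changes that rest on it are given without it as well. It was not the only library far from its group. The chi-square per degree of freedom between the counts of 2 libraries was 241 to 256 for CDDP replicate 5. It was 153 to 219 for CDDP replicate 2 against replicates 1, 3 and 4. For CDDP+ACBP replicate 3, which had the factor of 1.19, it was 87.2 to 156, and between PBS libraries 21.1 to 73.0. Cdkn1a, the p21 gene that DNA damage induces, had 5.12 to 63.2 CPM in CDDP+ACBP livers, 154 to 456 CPM in CDDP livers and 0.688 to 6.46 CPM in PBS livers, so its range in CDDP+ACBP livers lay wholly below that in CDDP livers.

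Levels per kilobase of exon covered a wide range among the 10 genes. The exon union takes in every annotated transcript form, with 860 bases for B2m and 8493 for Nlrc5, and the order of the genes depends on it. In PBS livers B2m stood at 2379.6 ± 179 CPM per kb (SD, n = 5), H2-K1 at 558 ± 43.4 and H2-D1 at 205 ± 17.2 CPM per kb. The antigen processing genes were far lower. Psmb10 had 42.2 ± 7.81, Tapbp 26.1 ± 2.56 and Psmb8 12.5 ± 1.80 CPM per kb. At the low end were Tap2 with 8.29 ± 1.14, Nlrc5 with 7.26 ± 1.995, Psmb9 with 5.95 ± 1.02 and Tap1 with 5.20 ± 0.757 CPM per kb. Among these last 4, each neighbouring pair in the order differed by less than the larger of its SDs. In CDDP livers Tapbp (33.7 ± 12.03 CPM per kb) stood above Psmb10 (26.7 ± 9.56 CPM per kb) and Tap1 (4.86 ± 2.60 CPM per kb) above Nlrc5 (4.71 ± 1.39 CPM per kb), each pair within 1 SD. Psmb9 stood last there at 2.79 ± 0.953 CPM per kb.

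In CDDP livers, B2m, the 3 immunoproteasome genes and Nlrc5 were lower than in PBS livers, while the heavy chain genes H2-K1 and H2-D1, the transporter genes Tap1 and Tap2 and Tapbp were not called different. In CDDP+ACBP livers B2m, the 3 immunoproteasome genes and Nlrc5 were higher than in CDDP livers. In both comparisons limma voom called H2-K1, Tap1 and Tap2 as well but did not call Psmb10, which gave 7 members. A fit of only the groups compared called 3 members in each. No member was called different in CDDP+ACBP livers against ACBP livers, nor in any comparison of CRS or of ACBP without CDDP. Genes were called at a Benjamini-Hochberg adjusted p under 0.05 from edgeR's quasi-likelihood test over 16304 genes, all 10 members being among these. Fold changes below are log2 values with an approximate SE.

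**Figure D1:**
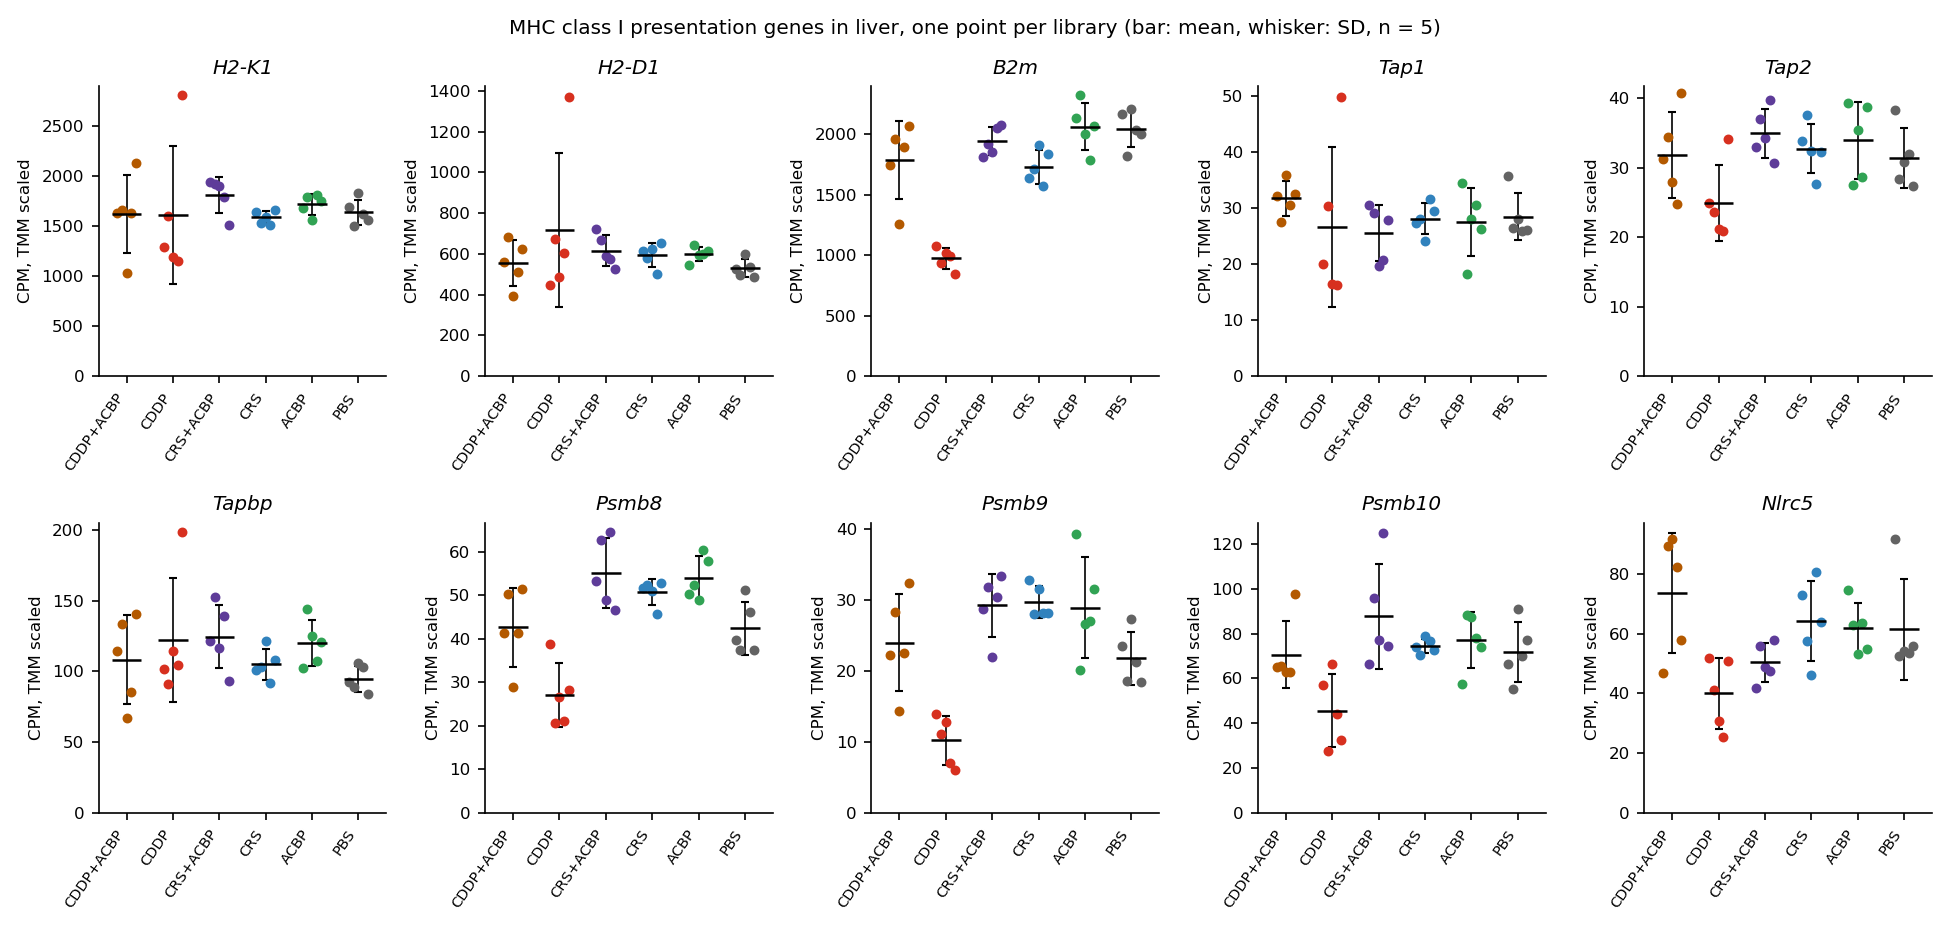
Level of each of the 10 genes in CPM (y axes, linear, from 0) in the 5 libraries of each group (points), with the mean (bar) and SD (whisker). The 5 CDDP libraries of B2m lie at 849 to 1073 CPM, below every other library shown for that gene, and CDDP replicate 5 stands highest for H2-K1, H2-D1, Tap1 and Tapbp.

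The light chain gene B2m (ENSMUSG00000060802, chromosome 2, 122147686 to 122153083, plus strand, mm10) had 1748, 1965, 1254, 1892 and 2071 CPM in the CDDP+ACBP libraries, 1073, 939, 1020.3, 989 and 849 CPM in the CDDP libraries and 2168, 1821, 2209.8, 2033 and 2000.5 CPM in the PBS libraries. The CDDP libraries did not overlap with either of the other groups, and CDDP+ACBP replicate 3 was the lowest of its group. B2m was 2.10-fold lower in CDDP livers than in PBS livers (log2 fold change -1.07 ± 0.13, edgeR adjusted p = 8.88e-07). It was 1.83-fold higher in CDDP+ACBP livers than in CDDP livers (0.87 ± 0.13, edgeR adjusted p = 1.99e-05). Both calls held in each of 38 alternative fits, 30 of which left out 1 library each. Means were 1945 ± 119.7 CPM in CRS+ACBP, 1732 ± 140.0 CPM in CRS and 2064 ± 196 CPM in ACBP livers (SD, n = 5 each).

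The heavy chain genes lie on chromosome 17, H2-K1 (ENSMUSG00000061232) at 33996017 to 34000347 on the minus strand and H2-D1 (ENSMUSG00000073411) at 35262730 to 35267499 on the plus strand. H2-K1 had 1634, 1665, 1032, 1638 and 2135 CPM in the CDDP+ACBP libraries, 1296, 1601, 1197, 1154 and 2811 CPM in the CDDP libraries and 1690.1, 1499, 1831, 1622 and 1562 CPM in the PBS libraries. Its CDDP libraries spread widely: 3 were below every PBS library and replicate 5 was above every library of the series. H2-D1 had 561, 685, 391, 512 and 625 CPM in the CDDP+ACBP libraries, 447, 674, 485, 602 and 1372 CPM in the CDDP libraries and 525, 497, 599, 538 and 486 CPM in the PBS libraries, again with CDDP replicate 5 highest by far. The log2 fold change of CDDP against PBS was -0.03 ± 0.19 for H2-K1 (edgeR adjusted p = 0.924) and 0.44 ± 0.21 for H2-D1 (adjusted p = 0.0896). Without CDDP replicate 5 it was -0.32 for H2-K1 (edgeR adjusted p = 0.0911) and 0.063 for H2-D1 (adjusted p = 0.765). H2-D1 was called higher when CDDP replicate 1 or 3 was left out, at up to 0.57. In CDDP+ACBP against CDDP the values were 0.01 ± 0.19 for H2-K1 and -0.37 ± 0.21 for H2-D1 (edgeR adjusted p = 0.981 and 0.17), and 0.30 and 0.0057 without CDDP replicate 5. Limma voom with quality weights called H2-K1 lower in CDDP against PBS (-0.35, adjusted p = 0.0216) and higher in CDDP+ACBP against CDDP (0.38, adjusted p = 0.0427). Of the 50-base windows in their transcripts, 9.63% for H2-K1 and 12.8% for H2-D1 occur in transcripts of other genes, mostly of the H2-Q family or of each other, so counts of these genes are uncertain where reads could be split. None of the windows of B2m, Psmb9, Psmb10 or Nlrc5 does.

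The upstream DNA of H2-K1 and B2m is shown because the level of the light chain gene differed between CDDP and PBS livers while that of the heavy chain gene was not called different. Promoter sequences come from RefSeq on GRCm38.p6, the assembly of mm10, with entries for 8 of the 10 genes. Capitals mark matches, on either strand, to the NF-kB consensus, to the interferon response element or its form that is 1 base shorter (GAANNGAAA), to TGACG (a cyclic AMP response half-site) and to CCAAT (Y box, ATTGG on the other strand). The letters run 5′ to 3′ on the gene's strand and end at the base before the first annotated exon.
H2-K1, chr17:34000348-34000547, minus strand: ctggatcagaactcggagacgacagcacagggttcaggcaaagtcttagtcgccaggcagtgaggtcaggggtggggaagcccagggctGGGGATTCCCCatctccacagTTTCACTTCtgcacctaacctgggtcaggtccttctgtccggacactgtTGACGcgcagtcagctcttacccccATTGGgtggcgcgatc
B2m, chr2:122147487-122147685, plus strand: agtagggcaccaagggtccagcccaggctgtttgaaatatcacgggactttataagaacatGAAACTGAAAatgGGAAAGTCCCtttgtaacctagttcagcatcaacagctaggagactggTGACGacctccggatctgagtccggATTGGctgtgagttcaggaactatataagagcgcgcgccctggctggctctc

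Both stretches held a match to the NF-kB consensus and to an interferon response motif, followed by TGACG and ATTGG. In H2-K1 the NF-kB consensus had 2 matches that overlapped by all but 1 base, and they lay upstream of the GAANNGAAA match. In B2m the order of these was the other way round and the match GAAACTGAAA was to the full interferon response element. Over 32851 promoter windows of 300 bases, 8.46% held the NF-kB consensus, 3.44% the interferon response element, 7.52% GAANNGAAA, 20.8% TGACG and 37.4% CCAAT. In H2-K1, H2-D1 and B2m, ATTGG started 25 bases after the start of TGACG, a spacing chosen after these matches were seen. This pair was in 31 windows (0.094%) of 27 genes out of 27025, H2-M3 among them. The 30 bases from 1 motif to the other are given with both motifs in capitals.
H2-K1, chr17:34000359-34000388, minus strand: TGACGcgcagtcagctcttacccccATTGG
H2-D1, chr17:35262993-35263022, plus strand: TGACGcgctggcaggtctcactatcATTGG
B2m, chr2:122147609-122147638, plus strand: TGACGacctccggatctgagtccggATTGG

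The 3 share the motifs and their spacing, and H2-D1 held the NF-kB consensus and GAANNGAAA in the same order as H2-K1. Of the other members with an entry, Tap1 held CCAAT and TGACG, Psmb9 CGTCA and ATTGG, and Tapbp ATTGG at 2 places. The Psmb8 and Psmb10 windows held no match to the motifs named here. The RefSeq start lay 3579 bases from the GENCODE gene start for Tapbp, 474 for Psmb8, 434 for Psmb9 and 364 for H2-D1. The windows of these genes thus lie inside the gene coordinates given in this report and not upstream of them. By their RefSeq starts Tap1 and Psmb9 begin 226 bases apart on opposite strands, and their windows share 275 bases. By the gene coordinates given in this report the 5′ ends of Tap1 and Psmb9 overlap. A match is a run of letters and not a site shown to be bound.

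The transporter genes Tap1 (ENSMUSG00000037321, chromosome 17, 34187553 to 34197225) and Tap2 (ENSMUSG00000024339, 34203527 to 34216321) lie next to Psmb9 and Psmb8. Tap1 had 32.2, 27.5, 35.99, 30.6 and 32.5 CPM in the CDDP+ACBP libraries, 20.02, 30.4, 16.4, 16.3 and 49.9 CPM in the CDDP libraries and 35.8, 26.5, 28.02, 26 and 26.1 CPM in the PBS libraries. Here 3 CDDP libraries were below every PBS library, and replicates 2 and 5 were not. Tap2 had 31.2, 34.5, 27.9, 24.8 and 40.7 CPM in the CDDP+ACBP libraries, 24.9, 23.7, 21.1, 20.8 and 34.1 CPM in the CDDP libraries and 38.3, 28.3, 30.9, 31.98 and 27.3 CPM in the PBS libraries, with 4 CDDP libraries below every PBS library. The fold change of CDDP against PBS was -0.10 ± 0.22 for Tap1 (edgeR adjusted p = 0.742) and -0.33 ± 0.15 for Tap2 (adjusted p = 0.0726). Without CDDP replicate 5 both were called lower, Tap1 at -0.45 (edgeR adjusted p = 0.0487) and Tap2 at -0.47 (adjusted p = 0.0107). In CDDP+ACBP against CDDP the values were 0.26 ± 0.22 for Tap1 and 0.35 ± 0.15 for Tap2 (edgeR adjusted p = 0.383 and 0.0664), and without CDDP replicate 5 both were called higher, at 0.61 and 0.49.

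Tapbp (ENSMUSG00000024308, chromosome 17, 33915899 to 33929292), which encodes the loading chaperone tapasin, had 115, 134, 66.9, 85.4 and 141 CPM in the CDDP+ACBP libraries, 102, 91.2, 115, 105 and 199 CPM in the CDDP libraries and 92.2, 88.8, 106, 103 and 84.1 CPM in the PBS libraries. The CDDP and PBS libraries overlapped, and so did the CDDP+ACBP and CDDP libraries. The fold change was 0.37 ± 0.19 in CDDP against PBS (edgeR adjusted p = 0.131) and -0.17 ± 0.19 in CDDP+ACBP against CDDP (adjusted p = 0.511). Without CDDP replicate 5 these were 0.12 and 0.070.

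The 3 immunoproteasome genes were lower in CDDP livers. Psmb9 (ENSMUSG00000096727, chromosome 17, 34181987 to 34187764), whose product replaces that of Psmb6, had 22.2, 28.3, 14.3, 22.5 and 32.4 CPM in the CDDP+ACBP libraries, 13.9, 11.1, 12.8, 7.06 and 6.05 CPM in the CDDP libraries and 23.4, 18.5, 27.3, 21.2 and 18.4 CPM in the PBS libraries. Each CDDP library was below each library of the other 5 groups. Psmb9 was 2.13-fold lower in CDDP livers than in PBS livers (-1.09 ± 0.21, edgeR adjusted p = 0.000213) and 2.34-fold higher in CDDP+ACBP livers than in CDDP livers (1.23 ± 0.21, adjusted p = 9.79e-05).

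Psmb8 (ENSMUSG00000024338, chromosome 17, 34197721 to 34201454), whose product replaces that of Psmb5, had 41.3, 50.2, 28.9, 41.4 and 51.4 CPM in the CDDP+ACBP libraries, 38.8, 20.7, 26.6, 20.97 and 28.2 CPM in the CDDP libraries and 39.8, 37.3, 51.2, 46.02 and 37.4 CPM in the PBS libraries. CDDP replicate 1 overlapped with the PBS libraries and the other 4 did not. Psmb8 was 1.57-fold lower in CDDP than in PBS livers (-0.65 ± 0.16, edgeR adjusted p = 0.00192) and 1.58-fold higher in CDDP+ACBP than in CDDP livers (0.66 ± 0.16, adjusted p = 0.00237). In a fit of the compared groups alone, the second of these was not called (edgeR adjusted p = 0.0630).

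Psmb10 (ENSMUSG00000031897, chromosome 8, 105935735 to 105938444), whose product replaces that of Psmb7, had 64.99, 65.3, 62.6, 62.9 and 97.5 CPM in the CDDP+ACBP libraries, 57.2, 27.6, 66.4, 44.1 and 32.6 CPM in the CDDP libraries and 66.3, 55.1, 91.1, 70.1 and 76.96 CPM in the PBS libraries. CDDP replicates 1 and 3 lay within the PBS range and the other 3 below it. Psmb10 was 1.58-fold lower in CDDP than in PBS livers (-0.66 ± 0.20, edgeR adjusted p = 0.0106) and 1.55-fold higher in CDDP+ACBP than in CDDP livers (0.63 ± 0.20, adjusted p = 0.0168). The second call was lost without CDDP replicate 2, CDDP replicate 5 or CDDP+ACBP replicate 5, with an edgeR adjusted p of up to 0.0673 over the libraries left out in turn. Neither was called in a fit of the compared groups alone (edgeR adjusted p = 0.0506 and 0.0964) or by limma voom (adjusted p = 0.0572 and 0.207).

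Nlrc5 (ENSMUSG00000074151, chromosome 8, 94434356 to 94527272) encodes the transactivator that works at class I promoters. It had 46.9, 89.5, 91.98, 82.6 and 57.8 CPM in the CDDP+ACBP libraries, 51.9, 41.2, 30.7, 25.4 and 50.8 CPM in the CDDP libraries and 91.9, 52.6, 54.3, 53.5 and 55.9 CPM in the PBS libraries. The CDDP and PBS libraries did not overlap, but their nearest values differed by less than 1 CPM, and PBS replicate 1 was far above the other 4. Nlrc5 was 1.54-fold lower in CDDP than in PBS livers (-0.62 ± 0.21, edgeR adjusted p = 0.0175), a call lost without PBS replicate 1 or CDDP replicate 4 (-0.44 at the nearest to 0, edgeR adjusted p of up to 0.0939) or in a fit of the compared groups alone (0.0513). It was 1.84-fold higher in CDDP+ACBP than in CDDP livers (0.88 ± 0.21, edgeR adjusted p = 0.00191), a call that held in each of the 38 alternative fits.

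Exons of several members overlap those of other genes: Psmb9 with Tap1 on opposite strands, Tap2 and Psmb8 with the antisense gene Gm20496, Tap2 also with Gm15821, Tapbp with Zbtb22 and Gm19412, and Nlrc5 with 9330175E14Rik. The libraries are labelled strand-specific, but the strand setting of the counting is not given in the sources used here, so the values of these 6 members are uncertain to the extent that reads could be assigned to either gene.

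Over the set, 5 of 10 genes were called in CDDP against PBS, all of them lower, where 41.4% of the 16304 genes were called and 18.3% were called lower. The groups did not overlap for 3 members (B2m, Psmb9 and Nlrc5), against 24.6% of all genes. The median log2 fold change was -0.48 over the members and 0.018 over all genes tested. In CDDP+ACBP against CDDP, 5 of 10 were called, all higher, against 33.8% of all genes called and 14.9% called higher. The groups did not overlap for 2 members, B2m and Psmb9, against 14.1% of all genes. The medians were 0.49 over the members and -0.0088 over all genes. Both comparisons use the same 5 CDDP libraries, so a deviation of these libraries enters both with opposite sign. Scaled by library size alone, the 5503 genes called in CDDP+ACBP against CDDP, 2432 higher and 3071 lower, became 5006, of which 2747 were higher and 2259 lower, and the members called were 6, all higher. Under that scaling the median of all genes was 0.11 on the log2 scale, so member values under it are to be read relative to this median.

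**Figure D2:**
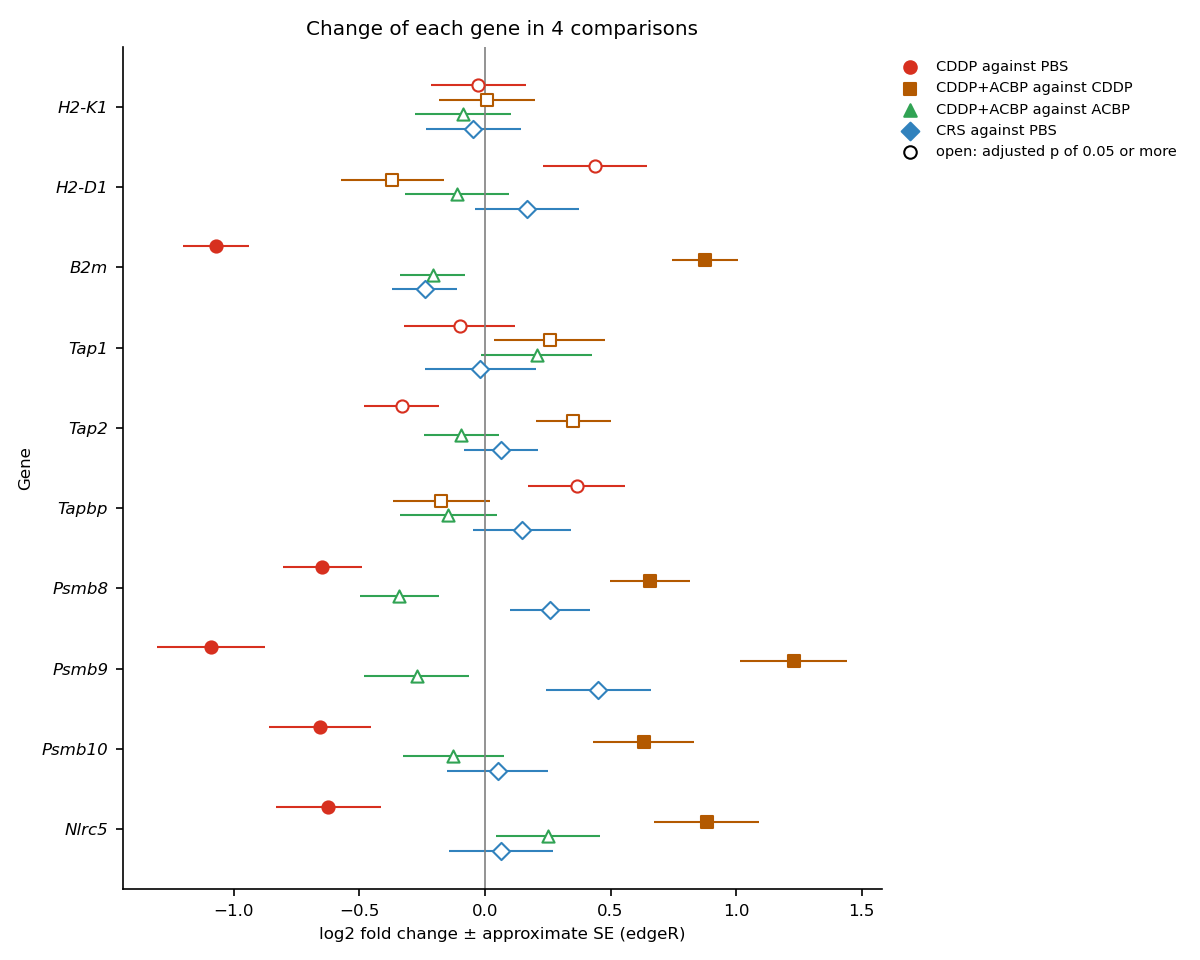
Log2 fold change (x axis) of each gene (y axis) with its approximate SE in 4 comparisons, filled where the edgeR adjusted p was under 0.05. B2m, Psmb8, Psmb9, Psmb10 and Nlrc5 are filled at -1.09 to -0.62 in CDDP against PBS and at 0.63 to 1.23 in CDDP+ACBP against CDDP, and each of the 10 genes is open in CDDP+ACBP against ACBP and in CRS against PBS.

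Whether ACBP went with a different response to CDDP was tested by the interaction, the change of CDDP+ACBP against ACBP minus that of CDDP against PBS. It was called for B2m (0.86 ± 0.19, edgeR adjusted p = 0.00217) and Nlrc5 (0.88 ± 0.29, adjusted p = 0.0346), 2 of 10 members against 19.7% of all genes and 8.38% called higher. For B2m the change of CDDP+ACBP against ACBP was -0.21 ± 0.13 and that of CDDP against PBS -1.07 ± 0.13. For Nlrc5 they were 0.25 ± 0.21 and -0.62 ± 0.21. The B2m call held in each of the 38 alternative fits and the Nlrc5 call in 27. Without the 7 libraries rich in muscle or brain transcripts, Nlrc5 had 0.87 with an edgeR adjusted p of 0.124. Psmb9 missed the threshold at 0.82 ± 0.30 (edgeR adjusted p = 0.0507) and was called by DESeq2 at 0.85 (adjusted p = 0.0312). The other 7 members were not called, with values of -0.55 for H2-D1 to 0.53 for Psmb10. Without CDDP replicate 5 the interaction of H2-D1 was -0.17 and that of Tap1 0.66 (edgeR adjusted p = 0.0597) in place of 0.31, and limma voom called Tap1 at 0.75 (adjusted p = 0.0254). Over all genes the interaction calls were 1367 higher and 1849 lower, and by library size alone 1457 higher and 1296 lower.

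In CDDP+ACBP against ACBP no member was called by edgeR, and 21 of all genes were (0.129%, with 0.0675% higher and 0.0613% lower). The groups overlapped for each member, against 1.2% of all genes without overlap. The members had log2 fold changes of -0.34 (Psmb8) to 0.25 (Nlrc5), with SEs of 0.13 to 0.22. Psmb8 alone had an unadjusted p under 0.05 in edgeR (0.0398, adjusted p = 0.994), and DESeq2 and limma voom called no member. A p that misses the threshold does not show that the 2 groups were alike.

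CDDP livers were set against CRS livers as well, both having PBS pumps, at 72 and 48 hours after implantation, so the inducers differ in their time as well as their kind. Here 6 of 10 members were lower, against 34.6% of all genes called and 15.1% called lower. Psmb9 had 13.9, 11.1, 12.8, 7.06 and 6.05 CPM in the CDDP libraries and 32.8, 28.03, 31.5, 28.2 and 28.2 CPM in the CRS libraries and was 2.91-fold lower in CDDP livers (-1.54 ± 0.22, edgeR adjusted p = 7.14e-06). Psmb8 (-0.91 ± 0.16), B2m (-0.83 ± 0.13), Psmb10 (-0.71 ± 0.20) and Nlrc5 (-0.69 ± 0.21) were lower too, with edgeR adjusted p-values of up to 0.0117. The Nlrc5 call was lost without the libraries rich in muscle or brain transcripts (-0.64, edgeR adjusted p = 0.0514). Limma voom called H2-K1 (-0.32) and Tap1 (-0.58) lower too. Tap2 (-0.40 ± 0.15, edgeR adjusted p = 0.0389) was called in 27 of the 38 alternative fits. The groups did not overlap for 4 members, B2m, Psmb8, Psmb9 and Psmb10, against 19.2% of all genes.

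In CRS against PBS no member was called by edgeR, DESeq2 or limma voom, and edgeR called 23 of all genes (0.141%, with 0.117% higher and 0.0245% lower). The member nearest to a call was Psmb9, with 32.8, 28.03, 31.5, 28.2 and 28.2 CPM in the CRS libraries and 23.4, 18.5, 27.3, 21.2 and 18.4 CPM in the PBS libraries. The groups did not overlap, as for 4.31% of all genes, and the fold change was 0.45 ± 0.21 (edgeR unadjusted p = 0.0399, adjusted p = 0.537). B2m had 1635, 1711, 1909.6, 1570.3 and 1836 CPM in the CRS libraries, 3 of them below the 1821 to 2209.8 CPM of the PBS libraries and 2 within, with a fold change of -0.24 ± 0.13 (edgeR adjusted p = 0.604). The other members lay between -0.05 (H2-K1) and 0.26 (Psmb8).

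The ACBP pump without an inducer gave no call among the members by edgeR, DESeq2 or limma voom. Over all genes edgeR called 0 of 16304 (0.0%), with 714 at an unadjusted p under 0.05, while DESeq2 called 9 and limma voom 2. Psmb8 had 50.3, 52.4, 48.9, 60.3 and 57.9 CPM in the ACBP libraries and 39.8, 37.3, 51.2, 46.02 and 37.4 CPM in the PBS libraries, with overlapping groups, and its fold change of 0.35 ± 0.16 had an edgeR unadjusted p of 0.0349 and an adjusted p of 0.999. The groups overlapped for each member, against 1.78% of all genes without overlap. The members ranged from -0.05 (Tap1) to 0.41 (Psmb9).

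ACBP on top of CRS gave no call among the members either. In CRS+ACBP against CRS they ranged from -0.35 (Nlrc5) to 0.25 (Tapbp), in CRS+ACBP against ACBP from -0.30 (Nlrc5) to 0.19 (Psmb10), and none had an edgeR unadjusted p under 0.05 in these or in the interaction of CRS and ACBP. Over all genes edgeR called 0 (0.0%) in each of the 3, with 468, 1194 and 388 at an unadjusted p under 0.05. DESeq2 called 1, 20 and 4 genes and limma voom 3, 19 and 1, none of them a member. Nlrc5 had 41.8, 56.03, 48.9, 47.4 and 58.1 CPM in the CRS+ACBP libraries and 73.2, 57.5, 46.1, 80.9 and 64.1 CPM in the CRS libraries, with overlapping groups. For each member the groups overlapped in both comparisons, against 0.883% and 1.84% of all genes without overlap.

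Ratios within a library, formed per kilobase of exon after the values were seen and given with no test, put the members beside their partners. B2m over the sum of H2-K1 and H2-D1 was 2.73 ± 0.18 in CDDP+ACBP, 1.58 ± 0.58 in CDDP and 3.12 ± 0.11 in PBS livers (SD, n = 5 each). The CDDP libraries lay at 0.663 (replicate 5, with replicate 2 next at 1.35) to 2.03 and the PBS libraries at 3.004 to 3.24. Psmb9 over Psmb6 was 0.0585 ± 0.0136 in CDDP+ACBP, 0.0261 ± 0.0103 in CDDP and 0.0549 ± 0.0111 in PBS livers. Psmb8 over Psmb5 was 0.137 ± 0.026 in CDDP+ACBP, 0.0783 ± 0.0247 in CDDP and 0.155 ± 0.023 in PBS livers. Psmb10 over Psmb7 was 1.91 ± 0.59 in CDDP+ACBP, 0.767 ± 0.370 in CDDP and 2.18 ± 0.75 in PBS livers. The size of a ratio depends on the annotated exon union, such as 899 bases for Psmb5 and 3421 for Psmb7. It is therefore no measure of the proportion of the subunits and serves to compare groups only. In CPM, Psmb10 and Psmb7 averaged 71.9 and 71.5 in PBS livers. In each of the 4 ratios every CDDP library lay below every PBS library. For the B2m ratio this also held for every CDDP+ACBP library (2.49 to 2.91) and every CRS library (2.39 to 2.83). For Psmb10 over Psmb7 the highest CDDP library was at 1.18 and the lowest PBS library at 1.21, with the lowest CRS+ACBP library at 1.04. How often such ratios of other genes separate these groups was not computed.

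**Figure D3:**
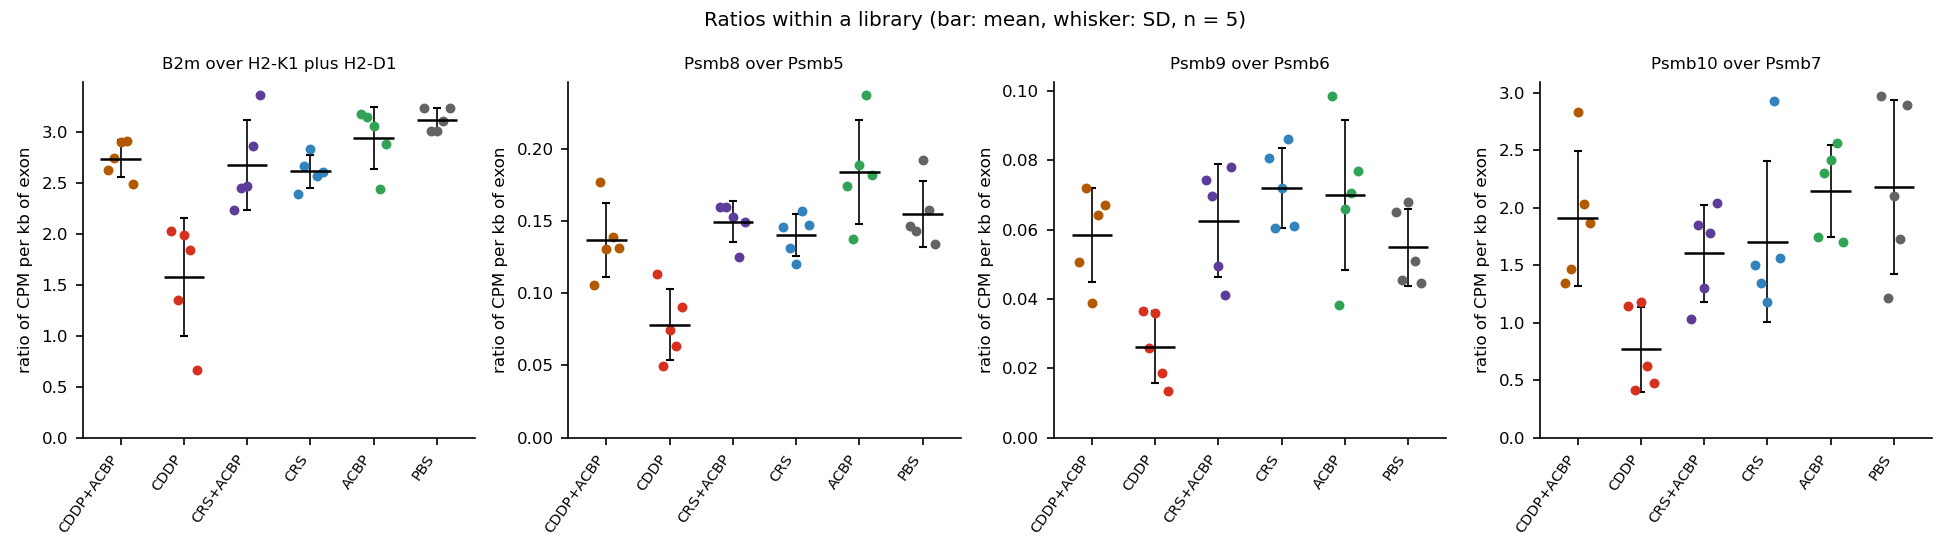
Ratios of CPM per kb within each library (y axes, linear, from 0) for B2m over H2-K1 plus H2-D1 and for each immunoproteasome gene over its constitutive partner, by group (points: libraries, bar: mean, whisker: SD, n = 5). The CDDP libraries lie below the PBS libraries in each panel, at 0.663 to 2.03 against 3.004 to 3.24 for B2m. For B2m the CDDP+ACBP libraries (2.49 to 2.91) and the CRS libraries (2.39 to 2.83) lie below the PBS libraries too.

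None of the 3 constitutive subunit genes was called lower in CDDP than in PBS livers. Psmb7 had 96.7, 89.5, 44.4, 62.2 and 105 CPM in the CDDP+ACBP libraries, 99.9, 135, 113, 142 and 139 CPM in the CDDP libraries and 44.8, 91.2, 86.8, 81.5 and 53.4 CPM in the PBS libraries. It was higher in CDDP than in PBS livers (0.81 ± 0.24, edgeR adjusted p = 0.00712) and lower in CDDP+ACBP than in CDDP livers (-0.66 ± 0.24, adjusted p = 0.0309), the second call being absent without CDDP replicate 5 or without the libraries rich in muscle or brain transcripts, and by library size alone. Psmb7 shares exons with Nek6 on the opposite strand, and its value is uncertain for that reason. Psmb5 had 0.36 ± 0.16 in CDDP against PBS (edgeR adjusted p = 0.0675) and Psmb6 -0.0015 ± 0.15 (adjusted p = 0.995).

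Further heavy chain genes, of class I or class I-like molecules, formed a list of 15, of which 14 were tested. In CDDP against PBS 2 were higher and 3 lower (background 23.1% and 18.3%), and in CDDP+ACBP against CDDP 3 were higher and 1 lower (background 14.9% and 18.8%). The list's median was -0.24 and 0.18. Without CDDP replicate 5 these counts were 1 higher and 5 lower, and 5 higher and 1 lower. Cd1d1, which presents lipids to NKT cells and pairs with beta-2-microglobulin, had 249.4 ± 47.2 CPM in CDDP+ACBP, 127 ± 9.82 CPM in CDDP and 246 ± 41.8 CPM in PBS livers (SD, n = 5 each). It was lower in CDDP against PBS (-0.96 ± 0.16, edgeR adjusted p = 2.74e-05) and higher in CDDP+ACBP against CDDP (0.98 ± 0.16, adjusted p = 3.92e-05). H2-T23, which encodes the Qa-1 molecule read by an inhibitory receptor of NK cells, averaged 229.9 ± 44.4 CPM in CDDP+ACBP, 137 ± 18.7 CPM in CDDP and 206 ± 34.3 CPM in PBS livers (-0.58 ± 0.17 in CDDP against PBS, edgeR adjusted p = 0.00729). H2-T24 was lower at 0.675 ± 0.574 CPM in CDDP, against 2.22 ± 0.88 CPM in PBS livers, for a nonclassical gene (-1.68 ± 0.45, edgeR adjusted p = 0.00359). Going the other way, H2-Q2, another nonclassical gene, had 1.96 ± 1.05 CPM in CDDP and 0.668 ± 0.221 CPM in PBS livers, and Hfe, which acts in iron sensing, 37.1 ± 9.23 CPM in CDDP and 26.4 ± 2.21 CPM in PBS livers, both called higher (edgeR adjusted p = 0.00900 and 0.0460). Reads of the H2-T and H2-Q genes could be shared with their paralogs, and these values are uncertain.

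Other genes of peptide trimming and loading gave 4 higher and 1 lower of 11 in CDDP against PBS, with a median of 0.35, and 1 higher and 5 lower in CDDP+ACBP against CDDP, with a median of -0.12, beside the backgrounds given for the heavy chain list (1 higher and 3 lower without the libraries rich in muscle or brain transcripts). Canx, the chaperone calnexin, had 114 ± 40.1 CPM in CDDP+ACBP, 209.7 ± 59.2 CPM in CDDP and 82.9 ± 15.9 CPM in PBS livers (1.34 ± 0.27 in CDDP against PBS, edgeR adjusted p = 0.000244). Thop1, a cytosolic peptidase that destroys peptides, had 8.77 ± 0.76 CPM in CDDP+ACBP, 19.5 ± 7.46 CPM in CDDP and 7.98 ± 1.04 CPM in PBS livers (1.29 ± 0.20, adjusted p = 1.72e-05). Tapbpl, a tapasin-related peptide editor, and Erap1, the trimming peptidase of the endoplasmic reticulum, were also higher in CDDP than in PBS livers (0.68 ± 0.16 and 0.43 ± 0.15, edgeR adjusted p = 0.00101 and 0.0202). The 1 gene lower was Psme2, a subunit of the interferon-induced proteasome activator PA28, with 91.7 ± 17.8 CPM in CDDP+ACBP, 58.6 ± 15.5 CPM in CDDP and 88.4 ± 11.7 CPM in PBS livers (-0.59 ± 0.18, edgeR adjusted p = 0.00917).

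Regulators of class I formed a list of 28, of which 27 were tested and Ifng was too low to be. In CDDP against PBS 3 were higher and 12 lower, with a median of -0.33, beside a background of 23.1% higher and 18.3% lower. Irf1, the interferon-induced factor that activates class I and immunoproteasome genes, had 56.7 ± 11.2 CPM in CDDP+ACBP, 27.2 ± 11.2 CPM in CDDP and 58.1 ± 4.93 CPM in PBS livers. It was lower in CDDP against PBS (-1.10 ± 0.21, edgeR adjusted p = 0.000142) and higher in CDDP+ACBP against CDDP (1.06 ± 0.21, adjusted p = 0.000322). Rfx5, a DNA-binding subunit of the RFX complex with which NLRC5 acts, had 19.7 ± 3.51 CPM in CDDP+ACBP, 9.37 ± 2.95 CPM in CDDP and 16.99 ± 0.87 CPM in PBS livers (-0.86 ± 0.19 and 1.07 ± 0.19 in the 2 comparisons, edgeR adjusted p = 0.000801 and 0.000134). Irf2, which binds the same element as Irf1, and Irf7, an amplifier of the interferon response, were lower in CDDP than in PBS livers (-1.18 ± 0.25 and -0.97 ± 0.16) and higher in CDDP+ACBP than in CDDP livers (0.78 ± 0.25 and 0.58 ± 0.16). Stat3, activated by interleukin-6 type cytokines, moved the other way, at 107 ± 32.7 CPM in CDDP+ACBP, 232 ± 149 CPM in CDDP and 78.96 ± 15.01 CPM in PBS livers (1.55 ± 0.28 in CDDP against PBS, edgeR adjusted p = 8.28e-05). Its CDDP libraries ran from 134 to 492 CPM. In CDDP+ACBP against CDDP 6 regulators were higher and 5 lower (background 14.9% and 18.8%). The interaction was called higher for 5 and lower for 1, with a background of 8.38% and 11.3% (2 and 0 without the libraries rich in muscle or brain transcripts).

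**Figure D4:**
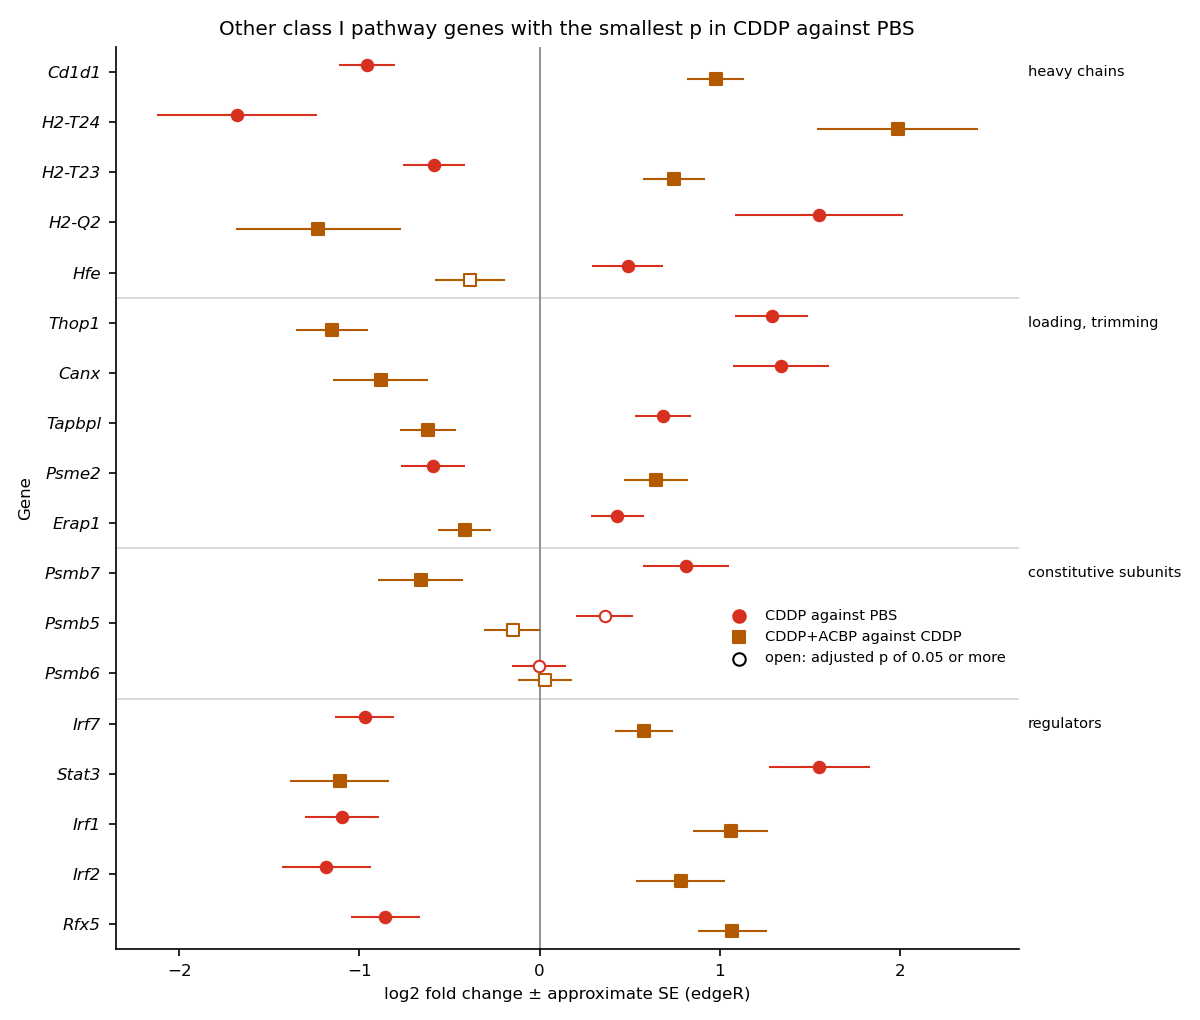
Log2 fold change (x axis) with its approximate SE of up to 5 genes from each of 4 lists (y axis), chosen by the smallest p in CDDP against PBS, in that comparison (circles) and in CDDP+ACBP against CDDP (squares), filled where the edgeR adjusted p was under 0.05. Irf1 lies at -1.10 and 1.06 and Canx at 1.34 and -0.88, and since the genes were picked by their p in the first comparison, their filled circles are no evidence about the lists.

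Most markers of T, NK and B cells, which carry much class I, were lower in CDDP than in PBS livers and higher in CDDP+ACBP than in CDDP livers, while 2 of 12 Kupffer cell markers were higher in CDDP+ACBP than in CDDP livers. Over all genes 23.1% were called higher and 18.3% lower in the first of these comparisons, and 14.9% higher and 18.8% lower in the second. Summed levels of 14 T and NK cell markers were 7.001 to 14.03 CPM in CDDP+ACBP, 1.67 to 6.31 CPM in CDDP and 10.2 to 13.3 CPM in PBS livers, and of the 12 tested 9 were lower in CDDP than in PBS livers and 8 higher in CDDP+ACBP than in CDDP livers. For 9 B and plasma cell markers the sums were 22.9 to 65.5 CPM, 2.28 to 14.2 CPM and 32.9 to 44.9 CPM in the same 3 groups, with 8 lower in CDDP against PBS and 8 higher in CDDP+ACBP against CDDP. The 12 Kupffer cell markers summed to 234 to 367 CPM in CDDP+ACBP, 259.9 to 369 CPM in CDDP and 412 to 508 CPM in PBS livers, with 7 lower and 1 higher in CDDP against PBS, and 1 lower and 2 higher in CDDP+ACBP against CDDP. In CDDP+ACBP against ACBP 5 Kupffer cell markers were lower, and 0.0613% of all genes. Sinusoidal endothelial markers (11) had 270.3 to 412 CPM, 173 to 297 CPM and 303 to 369 CPM, with 4 lower and 1 higher in CDDP against PBS, and 1 lower and 4 higher in CDDP+ACBP against CDDP. Stellate cell markers (10) had 338 to 521 CPM, 136 to 308 CPM and 361 to 729 CPM, with 5 lower in CDDP against PBS and 4 higher in CDDP+ACBP against CDDP. The 11 markers of monocytes, neutrophils and dendritic cells had summed levels of 9.33 to 17.3 CPM in CDDP+ACBP, 26.3 to 89.5 CPM in CDDP and 11.1 to 16.2 CPM in PBS livers, of which 4 were called higher and 3 lower in CDDP against PBS, and 3 higher and 4 lower in CDDP+ACBP against CDDP. The 6 red cell markers summed to 166 to 1222 CPM, 6.97 to 9.33 CPM and 257 to 471 CPM, with 5 lower in CDDP against PBS and 6 higher in CDDP+ACBP against CDDP. Slc4a1, a red cell marker, was at 0 in each CDDP library, as was the brain marker Stmn2, and the brain marker Snap25 was at 0 in each CDDP and each PBS library. No T, B or Kupffer cell marker was at 0 throughout a group. In bulk liver fewer cells of a type and less RNA per cell cannot be told apart, and the part of these cells in the levels of the class I genes was not tested.

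The genes whose profile over the 30 libraries was most like the members' median profile were Auh, Ndufa10, Rdh7, Bbip1 and Hebp1. Likeness was the root mean square difference between log2 CPM, centred on each gene's mean, and the median centred log2 CPM of the members, over 10294 genes averaging 5 CPM or more. These 5 were at 0.163 to 0.173, while the members themselves ran from 0.147 (Tap2) to 0.469 (Psmb9). On the log2 scale the median profile ran from -0.51 to 0.32 in CDDP+ACBP livers, from -0.68 to -0.0088 in CDDP livers and from -0.18 to 0.10 in PBS livers, with group medians of -0.0011, -0.42 and -0.038. It ran from 0.039 to 0.31 in CRS+ACBP, from -0.024 to 0.12 in CRS and from 0.12 to 0.27 in ACBP livers.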

How the data were processed

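Liver mRNA was measured in 30 libraries, 5 for each of 6 groups, and given as 1 table of raw counts. The counts were deposited by the authors, who aligned reads with HISAT2 2.2.1 to mm10 and counted them with HTSeq 2.0.3, per the submitters' processing notes. RNA was isolated with an RNeasy kit and libraries were strand-specific, per the labels' protocols. Not given in the sources used here are the annotation release, the strand setting and the treatment of multiply mapped reads. The table lists 48440 genes and 5 summary lines, which were left out of library sizes: in the median library 38.0% of reads were on genes, 43.4% on no feature and 11.0% not unique. The share not unique was 6.22 to 7.32% in the CDDP libraries and 11.3 to 12.3% in the PBS libraries. The lowest share outside the CDDP group was 8.02%, in CDDP+ACBP replicate 1. The part of this difference in the member levels was not tested. Depth limits each count by its sampling error only, and intervals between libraries come from the replicates. The labels give no batch, and no 2 libraries of a group agreed within sampling noise.

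Genes were tested in R 4.3.3 with edgeR 4.0.16 (filterByExpr, TMM factors, quasi-likelihood F test) in 1 fit of the 30 libraries with a coefficient per group, and p-values were adjusted by Benjamini-Hochberg over 16304 genes with a threshold of 0.05. The approximate SE is the size of the log2 fold change over the root of its F statistic. As 1 spread per gene served all groups, an SE does not follow the spread of the groups compared. For H2-K1 it was 0.19 in CDDP against PBS and in CRS against PBS. The SD of H2-K1 was 693 CPM in CDDP and 62.5 CPM in CRS livers. CPM uses TMM-scaled library sizes, and levels per kb use the union of exons in GENCODE vM21, where 99.2% of the table's identifiers were found. Alternatives were DESeq2 1.42.0, limma 3.58.1 voom with quality weights, RLE factors, no filter, only the groups compared, each library left out in turn and, chosen after the data were seen, library size alone and the removal of CDDP replicate 5 together with the muscle- and brain-rich libraries. The scripts were tested on simulated data. The members and gene lists were chosen with earlier results of these data known. Every member is named, and from each other list of pathway genes up to 5 with the smallest p in CDDP against PBS. The 5 genes most like the members' median profile are named too. Promoters are RefSeq's, 250 bases before to 50 after the start. Figures were drawn with Python 3.11.15 and matplotlib 3.10.9.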

Additional observations from a re-analysis of the deposited data

Results flagged for a closer look

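In 7 of 60 sets of 5 libraries, 1 library stood far from the others, its gap to the nearest divided by the range exceeding Dixon's 95% critical value for 5 samples, which chance gives in about 1 set in 20. In CDDP livers, replicate 5 was highest for H2-K1 (2811 CPM with the next at 1601, ratio 0.730), H2-D1 (1372 CPM with the next at 674, ratio 0.754) and Tapbp (199 CPM with the next at 115, ratio 0.781). This library also had the lowest scaling factor of the series, and the part of that in its levels was not tested. In PBS livers, replicate 1 was highest for Tap1 (35.8 CPM with the next at 28.02, ratio 0.793) and Nlrc5 (91.9 CPM with the next at 55.9, ratio 0.916). Replicate 5 of CDDP+ACBP was highest for Psmb10 (97.5 CPM with the next at 65.3, ratio 0.922). Psmb8 was lowest in CRS replicate 4 (45.6 CPM with the next at 51.1, ratio 0.760).

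The response to CDDP differed between livers with ACBP and with PBS pumps for B2m (interaction 0.86, edgeR adjusted p = 0.00217) and for Nlrc5 (0.88, edgeR adjusted p = 0.0346). The change of CDDP against PBS is a term of this interaction and gives it no separate support. In it each CDDP library was below each PBS library for B2m and Nlrc5, and 24.6% of all genes had groups that did not overlap. For Nlrc5 the nearest values were 51.9 CPM in CDDP and 52.6 CPM in PBS livers. The Nlrc5 interaction was called in 27 of the 38 alternative fits. It was not called without the libraries rich in muscle or brain transcripts (edgeR adjusted p = 0.124).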

How the results depend on the processing

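No paired analysis was possible because the labels number the libraries consecutively and give no replicate shared between groups. Against 5 members called in CDDP against PBS and 5 in CDDP+ACBP against CDDP, a fit of only the groups compared called 3 in each, and the interaction of CDDP and ACBP called 1 in place of 2 in that fit, without the muscle- and brain-rich libraries, and without these and CDDP replicate 5. Over all genes, the fit of only the groups compared called 4789, 2217 and 2425 in these 3, in place of 6756, 5503 and 3216. Leaving out each library in turn gave 4 to 7 calls in CDDP against PBS, 4 to 6 in CDDP+ACBP against CDDP, 5 to 6 in CDDP against CRS and 1 to 3 in the interaction. The calls over all genes were 5897 to 7073, 4581 to 6042, 4711 to 6127 and 2495 to 3855 in the same order. H2-K1 in CDDP against CRS, 0.021 and not called, became -0.32 under limma voom (adjusted p = 0.0417), and the cause was not tested. Other member values, under alternatives that kept all or most libraries, counted as the same if called in the same direction in both fits. A value called in neither fit counted as the same if its shift was under the main fit's SE, whatever its sign. A larger shift without a call counted as moved. Of these values, 743 stayed the same, 14 lost a call, 16 gained one and 26 moved. Single libraries left out gave 2953, 21, 13 and 13 in the same order. Nlrc5 in the interaction was lost without any 1 of 8 libraries (PBS 1, CDDP 3 and 4, ACBP 3 and 5, CDDP+ACBP 2, 3 and 4).

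Over all genes, CRS against PBS called 23 genes, but 265 with only the groups compared, 9 without the muscle- and brain-rich libraries, 930 by voom, 82 by DESeq2 and 9 to 38 with 1 library left out. CDDP+ACBP against ACBP called 21, but 2, 0, 70 and 91 in those 4 fits, 9 by library size alone, 0 without the rich libraries and CDDP replicate 5, and 5 to 39 with 1 library left out. CDDP+ACBP against CDDP called 5503, but 2217 with only the groups compared and 3530 by voom, CDDP against CRS 5639, but 3709 with only the groups compared, and the CDDP interaction 3216, but 1722 without the rich libraries and 2029 with CDDP replicate 5 left out as well. Sampling error weighs more on Psmb9, Tap1 and Tap2, the members low in CPM, than on the others, and on H2-T24 and H2-Q2 further still. Psmb9 and Tap1 still averaged 393 and 459 reads per library. Their SDs in CDDP livers were wide, 3.49 on a mean of 10.2 CPM and 14.2 on a mean of 26.6 CPM.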
